A study of Mus musculus with 60 samples.

Results

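The mouse genes Prelid2, 1700001D01Rik, Capn11 and Nat8f5 were chosen by their large differences between knock-out and control hepatocytes in these same arrays. They were found by symbol in the platform annotation, which gave 1 probe for each of the 4 genes, out of 14442 genes with a probe. All 4 probes were among those tested, which covered 10074 genes. The values that drew attention were the KO minus WT differences of Prelid2 at 0 and 0.5 h, of 1700001D01Rik at 0 h, and of Capn11 and Nat8f5 at 2 h. These are given below as a description with no test, and so is every other comparison that uses those groups of that gene. The tests were kept for the remaining groups, although the labels do not say whether cultures of different times came from the same mice.

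The arrays compared primary hepatocytes of male mice aged 9 to 10 weeks. KO cells came from mice of strain 129SV/C57BL6 with the genotype Alb-Cre +/-; Met Fl/Fl, and WT cells from Cre control mice of strain C57BL, so genotype and strain changed together and cannot be told apart. Cells were studied untreated (0 h) and after 0.5, 2, 12 and 24 h with hepatocyte growth factor (HGF) at 50 ng/ml, with 3 replicates in each of the 10 groups. Each replicate was hybridised on 2 arrays with exchanged dyes, once with the sample in Cy5 and once in Cy3, against one pool of WT hepatocyte RNA, which made 60 arrays. The albumin promoter drives Cre in hepatocytes, so other liver cells in a culture would keep Met. HGF and time in culture changed together, since every later culture analysed here had received HGF. The labels give 3 individual mice as the source of the triplicate cultures, and p-values measure the spread between these, pooled over all 10 groups.

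Met is the receptor tyrosine kinase that binds HGF, and HGF acting through it drives growth and movement of hepatocytes. The 4 genes belong to unrelated families. Prelid2 encodes a protein with a PRELI domain, a fold that other members of its family use to carry phospholipids between the mitochondrial membranes. Capn11 encodes a calpain, a calcium-dependent cysteine protease, and is known for its expression in testis. Nat8f5 belongs to the NAT8 family of acetyltransferases, of which human NAT8 acetylates cysteine conjugates in the last step of mercapturic acid formation, a route by which liver and kidney dispose of reactive compounds. 1700001D01Rik is annotated as a long noncoding RNA.

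Between 17356 and 21511 of 21997 probes had a value on an array, and 6.01% of all values were missing. Values are log2 ratios of sample to reference, each array centred on its median. Precision is limited by having 3 replicates in a group. Over all probes, 23 of the 30 dye pairs correlated negatively (r from -0.68 to 0.19), and r fell below -0.3 between 19 pairs of arrays of like dye, each of which included the Cy5 array of WT 0 h replicate 3, whose direction is therefore unsettled. The deposited values do not state which sample is the numerator. Of the 198 probes that passed the test at 12 h on the Cy5 arrays alone, 93.9% differed in the same direction on the Cy3 arrays, and of 403 such probes at 24 h, 88.1% did. Of the probes that passed on the Cy3 arrays alone, 73.1% of 93 at 12 h and 85.3% of 217 at 24 h had the same direction on the Cy5 arrays. Ratios were therefore read as sample over reference on both dyes. That check covers only probes that passed at 12 and 24 h. At 0.5 h the KO dye pairs correlated with r = -0.68, -0.65 and -0.49, and the WT pairs with 0.08, -0.01 and 0.03. Over 15177 probes, KO minus WT on the 2 dyes correlated with r = -0.17, 0.01, 0.32, 0.18 and 0.23 at 0, 0.5, 2, 12 and 24 h. For 12 and 24 h minus untreated, r was -0.18 and 0.14 in WT and 0.17 and 0.21 in KO. By the numbers of the arrays in their titles, the arrays fall into runs here named sets A to D. The 0.5 h arrays and the 2 h arrays except KO replicate 3 (set A) lie in set D, the 12 h arrays in set C, and replicates 1 and 2 at 0 and 24 h in set C except for 1 array. Replicate 3 lies in set A for KO at 0 h and in set B for KO at 24 h and for WT at 0 and 24 h. The Met probe did not show the deletion: it ranged from -0.05 to 0.44 (median 0.27) over 14 KO replicates and from -0.55 to 0.57 (median 0.25) over 13 WT replicates with both arrays. Whether that probe lies in the deleted part is not known from the files.

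Nat8f5 lies in a cluster of close relatives on chromosome 6, and the family member with the longest matching promoter block is Nat8f2. The windows from 250 bases before to 50 bases after the annotated starts of both genes are shown because they share a block of sequence while the 2 probes differed in their readings, as described further on. Both were taken from RefSeq in build GRCm38.p6 and lie on the minus strand, Nat8f5 at chr6:85820923-85821222 and Nat8f2 at chr6:85869088-85869387. Capitals mark the best ungapped match between the windows, 62 bases of which 53 (85.5%) were identical.
Nat8f5: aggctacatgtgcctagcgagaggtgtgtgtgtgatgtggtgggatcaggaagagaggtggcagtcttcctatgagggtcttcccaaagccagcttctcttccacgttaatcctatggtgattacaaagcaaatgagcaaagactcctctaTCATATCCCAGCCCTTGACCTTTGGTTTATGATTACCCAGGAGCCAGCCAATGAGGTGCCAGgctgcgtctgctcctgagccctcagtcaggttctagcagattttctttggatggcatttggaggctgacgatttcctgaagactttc
Nat8f2: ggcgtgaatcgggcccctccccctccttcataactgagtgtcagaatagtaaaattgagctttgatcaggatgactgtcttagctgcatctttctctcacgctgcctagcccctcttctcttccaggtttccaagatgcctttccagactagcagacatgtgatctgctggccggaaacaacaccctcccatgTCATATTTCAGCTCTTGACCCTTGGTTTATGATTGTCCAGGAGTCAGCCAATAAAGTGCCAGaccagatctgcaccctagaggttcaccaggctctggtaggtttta
Each window holds the motif CCAAT 1 time, inside the shared block and on the strand shown. Searched on both strands, CCAAT occurs in 37.4% of all 32851 windows of this length in the table, so its presence is common. The next best match among the NAT8 promoters, with Nat8, was a block of 29 bases with 25 identical.

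Prelid2 read higher in KO than in WT hepatocytes at 0, 0.5, 12 and 24 h, by log2 differences of 1.89, 1.95, 2.06 and 1.15, whereas at 2 h the difference was -0.10 ± 0.25 (SE). It passed the test at 12 and 24 h, at 24 h not in every setting, and the 0 and 0.5 h values are descriptions. At each time the sign was the same on both dyes. Untreated, the KO arrays read 1.47, 1.24 and -0.02 in Cy5 and 0.38, 0.44 and -0.14 in Cy3 for replicates 1 to 3, against -1.40, -1.34 and -1.61 in Cy5 and -1.55, -1.81 and -0.28 in Cy3 for WT. Replicate 3 of KO lay near the reference on both dyes, and the replicate means of the genotypes did not overlap. After 0.5 h, KO arrays read 1.19, 1.22 and 1.11 in Cy5 and 0.25, 0.24 and 0.50 in Cy3, against -1.36, -0.89 and -0.71 in Cy5 and -1.38, -1.68 and -1.20 in Cy3 for WT. All 6 KO arrays were above the reference and all 6 WT arrays below it.

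At 2 h, Prelid2 read -0.30, -0.14 and -0.06 in Cy5 and -0.22, -0.31 and -0.42 in Cy3 on KO arrays, against -0.16, -0.16 and 0.13 in Cy5 and -0.29, -0.02 and -0.36 in Cy3 on WT arrays. Both genotypes were near the reference, and array by array they overlapped. Averaged over dyes, KO replicates lay between -0.26 and -0.23 and WT replicates between -0.23 and -0.09, a difference that did not pass limma's test (adjusted p = 0.995). At 12 h the genotypes parted again. KO arrays read 1.24, 1.11 and 1.36 in Cy5 and 0.49, 0.17 and 0.45 in Cy3, against -0.92, -0.74 and -0.69 in Cy5 and -1.73, -1.87 and -1.62 in Cy3 for WT. At 24 h, KO arrays read 0.77, 1.03 and -0.43 in Cy5 and -0.10, 0.08 and -0.53 in Cy3, against -0.87, -0.72 and -0.59 in Cy5 and -2.06, -0.35 and -1.49 in Cy3 for WT. KO replicate 3, in set B, lay below the other KO replicates on both dyes, and the Cy3 array of WT replicate 2 read above it. Single arrays thus overlapped on Cy3. Replicate means did not, lying wholly higher in KO as for 8.55% of probes.

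**Figure D1:**
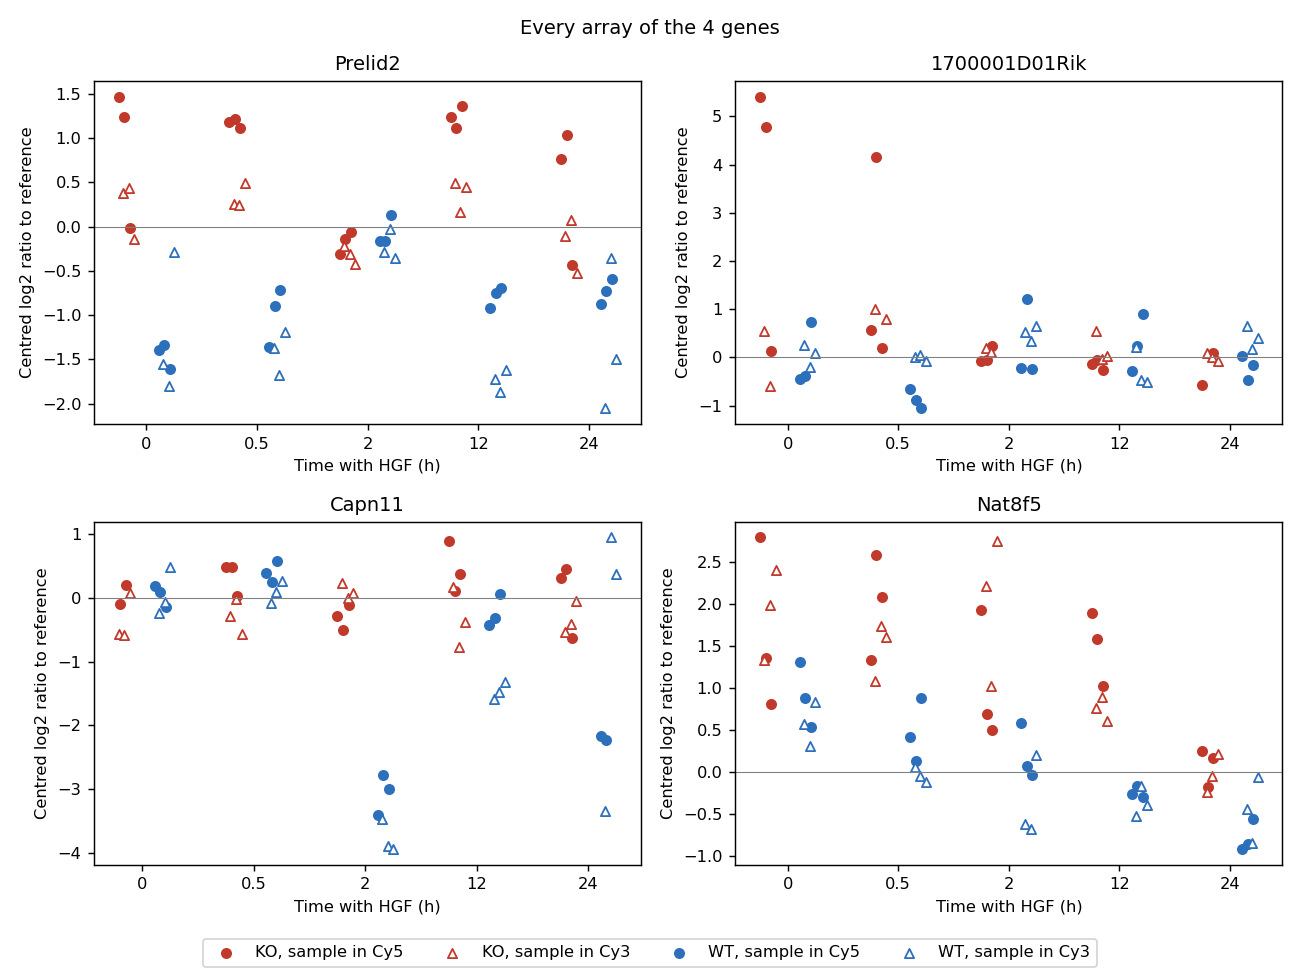
Centred log2 ratio to the reference pool (vertical axis) on each array by hours with HGF (horizontal axis, not to scale in time), KO in red left of WT in blue, with filled circles for samples in Cy5 and open triangles for samples in Cy3. Single arrays of Prelid2 overlap between genotypes at 2 h and, on Cy3, at 24 h, 3 Cy5 arrays of KO cells carry all values of 1700001D01Rik above 4, Capn11 is low on the 6 WT arrays of 2 h, and Nat8f5 is lowest at 24 h in both genotypes.

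Averaged over dyes, Prelid2 was 0.80 ± 0.14 in KO and -1.26 ± 0.09 in WT cells at 12 h (SD, n = 3 each), a difference of 2.06 ± 0.25 (SE), 4.18-fold, that passed the test with an adjusted p of 3.4e-05 from limma. The test is across all 14580 probes with Benjamini-Hochberg adjustment and a threshold of 0.05, and 1.29% of probes were higher in KO at this time by the same rule. On 1 dye alone the difference was 2.02 (Cy5) and 2.11 (Cy3), and it passed on each (limma, adjusted p = 0.000721 and 0.00211), where 0.512% and 0.204% of probes were higher. At 24 h, Prelid2 was 0.13 ± 0.55 in KO and -1.01 ± 0.46 in WT (SD, n = 3 each), and the difference of 1.15 ± 0.25 (SE), 2.22-fold, passed as well (limma, adjusted p = 0.00549), with 2.41% of probes higher in KO. The test pools the spread of all groups, but the residual SD over probes was 0.43 in KO and 0.36 in WT at 24 h, against 0.17 in each at 2 h. The 24 h difference of Prelid2 missed the threshold with replicates weighted by group and with only the groups compared fitted. The Cy5 arrays alone gave 1.18 (adjusted p = 0.0308) and the Cy3 arrays alone 1.11 (adjusted p = 0.0922), in limma fits where 1.46% and 0.811% of probes were higher. With array sets A and B left out, WT replicate 2 lost its Cy3 array and dropped out with replicate 3, and the 24 h difference was 1.91 between 2 KO replicates and 1 WT replicate. Over 12 and 24 h together the difference was 1.61 ± 0.17 (SE), among 3.77% of probes higher in KO (limma, adjusted p = 6.79e-07).

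The untreated and 0.5 h differences of Prelid2, 1.89 and 1.95, were among those that led to its choice. At those times 0.0412% and 2% of probes were higher in KO by the test, and replicates of 5.14% and 15.8% of probes lay wholly higher in KO. Nothing is read from them. The comparison of the 2 h with the 12 h difference was chosen after the values were seen. It gave -2.17 ± 0.35 (SE; limma, adjusted p = 0.0132), one of 5 probes (0.0343%) with a negative change that passed. It missed the threshold without KO 2 h replicate 3 (adjusted p = 0.0521) and without WT 12 h replicate 2 (adjusted p = 0.0585), at values of -2.17 and -2.14. Against untreated, Prelid2 read 1.19 higher in WT and 0.81 lower in KO at 2 h, given without a test. The 12 h minus untreated values were 0.24 in KO and 0.07 in WT, also with no test, and the 24 h minus 12 h changes were -0.67 ± 0.25 in KO (limma, adjusted p = 0.228) and 0.25 ± 0.25 in WT (adjusted p = 0.622; SE). Neither passed.

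The size of the ratio on either side of the reference depended on dye. Cy5 arrays read higher than Cy3 arrays in 26 of 30 replicates of Prelid2, by a median absolute gap of 0.77, against a median of 0.45 over all tested probes. Since the gap ran the same way in both genotypes, KO minus WT was nearly the same on the 2 dyes at 2, 12 and 24 h. Within set C, which held arrays of both genotypes, the 14 KO arrays ranged from -0.10 to 1.47 and the 13 WT arrays from -2.06 to -0.69. In set D, where all 2 h WT arrays lie, the 10 KO arrays ranged from -0.31 to 1.22 and the 12 WT arrays from -1.68 to 0.13. These ranges include the 0 and 0.5 h arrays, whose values chose the gene, and both dyes of a replicate, so they are a description. The 4 KO arrays of set A and the 2 of set B read between -0.53 and -0.02. Nothing is read about set D from its 0.5 h arrays, since their values were among those that chose the gene. At 2 h the KO arrays in set A averaged -0.24 and those in set D -0.25. With array set as a term in the model, the 2 h minus 12 h value was -2.17 (limma, adjusted p = 0.00374). All 12 h arrays lie in set C and nearly all 2 h arrays in set D. A set term common to both genotypes therefore almost cancels in this value, and a set effect differing between genotypes was not tested.

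The other genes of the PRELI family did not pass the test between genotypes. Prelid3b, Sec14l1 and Triap1 were tested, Triap1 being the small partner protein of PRELI-domain carriers, and none of the 3 passed at any time (limma, adjusted p from 0.085 for Sec14l1 over 12 and 24 h upwards). Their median difference over 12 and 24 h was -0.28, against -0.00 over all tested probes. The 10 nearest tested genes on chromosome 18, 5 on each side, were also read. None of these 10 passed at any time, and their differences over 12 and 24 h ran from -0.30 to 0.12. The genes whose replicate values most resembled those of Prelid2 were Tceanc2 (r = 0.82 over 29 shared replicates), Mkrn1 (0.81 over 29) and Acy3 (0.79 over 28). These are descriptions across replicates that share arrays and reference. On single dyes r lay between 0.66 and 0.86.

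Capn11 averaged near the reference in KO cells at each time and in WT cells untreated and at 0.5 h, but far below it in WT cells at 2 h. Its KO minus WT difference at 2 h was 3.32, or 9.96-fold, and the highest of all 14580 probes, which is what chose it. KO arrays at 2 h read -0.28, -0.50 and -0.11 in Cy5 and 0.24, -0.01 and 0.08 in Cy3, against -3.40, -2.77 and -2.99 in Cy5 and -3.46, -3.90 and -3.94 in Cy3 for WT. Every WT array was at least 2 log2 units below every KO array, on either dye. As background, 0.316% of probes were higher in KO at this time by the test, and replicates of 15.9% lay wholly higher in KO.

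The low level was not seen earlier. Untreated, KO arrays read -0.09 and 0.20 in Cy5 (replicates 2 and 3, with replicate 1 missing) and -0.56, -0.58 and 0.08 in Cy3, against 0.18, 0.09 and -0.14 in Cy5 and -0.23, -0.06 and 0.48 in Cy3 for WT. After 0.5 h, KO arrays read 0.49, 0.48 and 0.03 in Cy5 and -0.28, -0.01 and -0.56 in Cy3, against 0.40, 0.25 and 0.58 in Cy5 and -0.08, 0.10 and 0.28 in Cy3 for WT. The genotypes overlapped at both times. KO minus WT was -0.15 ± 0.35 untreated, with 2 KO replicates on both dyes, and -0.23 ± 0.31 at 0.5 h (SE; limma, adjusted p = 0.999 and 0.741), so neither difference passed.

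At 12 h, KO arrays read 0.90, 0.12 and 0.38 in Cy5 and 0.18, -0.76 and -0.37 in Cy3, against -0.43, -0.32 and 0.07 in Cy5 and -1.59, -1.47 and -1.32 in Cy3 for WT. WT arrays were lower on each dye, by more on Cy3. Averaged over dyes, Capn11 was 0.07 ± 0.43 in KO and -0.84 ± 0.20 in WT (SD, n = 3 each), and the replicates did not overlap, as for 13.7% of probes. The difference of 0.92 ± 0.31 (SE) did not pass over all probes (limma, adjusted p = 0.137). It passed when sets A and B were left out (adjusted p = 0.00376) and when replicates were weighted by the spread of their group (adjusted p = 0.0246), at the same value.

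At 24 h the arrays of WT cells disagreed. KO arrays read 0.31, 0.45 and -0.63 in Cy5 and -0.53, -0.40 and -0.05 in Cy3, against -2.16 and -2.23 in Cy5 (replicates 1 and 2, with replicate 3 missing) and -3.35, 0.95 and 0.37 in Cy3 for WT. The 3 WT arrays in set C were below -2, and the 2 WT arrays in set B, the Cy3 arrays of replicates 2 and 3, were above 0. Replicate 2 thus had its Cy5 array in set C at -2.23 and its Cy3 array in set B at 0.95, a gap of 3.18 within 1 RNA sample. Only 10.4% of tested probes had a wider gap in any replicate. KO minus WT was 1.55 ± 0.35 (SE), with means of -0.14 ± 0.18 in KO (SD, n = 3) and -1.70 ± 1.50 in WT (SD, n = 2). It passed with the spread pooled over all groups (limma, adjusted p = 0.00937), where 2.41% of probes were higher in KO. With replicates weighted by group, or only the groups compared fitted, it did not pass. Replicates lay wholly higher in KO, as for 8.55% of probes. The difference was 2.24 on Cy5 arrays alone (limma, adjusted p = 3.45e-05) and 0.35 on Cy3 arrays alone (adjusted p = 0.82). Only WT replicates 1 and 2 had both arrays, so leaving out either leaves 1 WT replicate, whose spread is then assumed to be like that of the other groups. The difference was 0.49 without WT replicate 1, no longer past the threshold (limma, adjusted p = 0.321), and 2.61 without WT replicate 2. Without sets A and B, which also leaves WT replicate 1 alone, it was 2.71.

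Over 12 and 24 h together the Capn11 difference was 1.24 ± 0.24 (SE; limma, adjusted p = 0.00118), where 3.77% of probes were higher in KO. The difference was 0.71 without WT 24 h replicate 1, with 1 WT replicate left at 24 h. With time in WT cells, Capn11 changed by 0.20 ± 0.31 at 0.5 h, -0.90 ± 0.31 at 12 h and -1.75 ± 0.35 at 24 h against untreated (SE). Of these only the 24 h change passed (limma, adjusted p = 0.801, 0.0938 and 0.00225), where 3.16% of probes at 12 h and 4.76% at 24 h were lower. The 24 h change did not pass when only the groups compared were fitted. With 1 WT replicate left at 24 h, that change was -0.69 without replicate 1 (adjusted p = 0.12) and -2.81 without replicate 2. The mean ratio over 9 hepatocyte markers was also lower in WT at 24 h (-1.28, against -0.04 untreated), and its part in this change was not tested. At 2 h, given without a test, it was -3.47. In KO cells the changes at 0.5, 12 and 24 h were 0.12, 0.17 and -0.05, and none passed (limma, adjusted p = 1, 0.996 and 0.98), beside 0.11% of probes lower at 12 h and 2.94% at 24 h. The difference between the genotypes in the response was 1.07 ± 0.47 at 12 h and 1.71 ± 0.50 at 24 h (SE), and it did not pass at either time (limma, adjusted p = 0.737 and 0.129, with 0.0754% and 0.727% of probes passing). The 24 h value was 2.76 without WT 24 h replicate 2, with an adjusted p of 0.000106 from limma that rests on 1 WT replicate at 24 h and the spread of the other groups, and 0.65 without WT 24 h replicate 1, which did not pass.

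**Figure D2:**
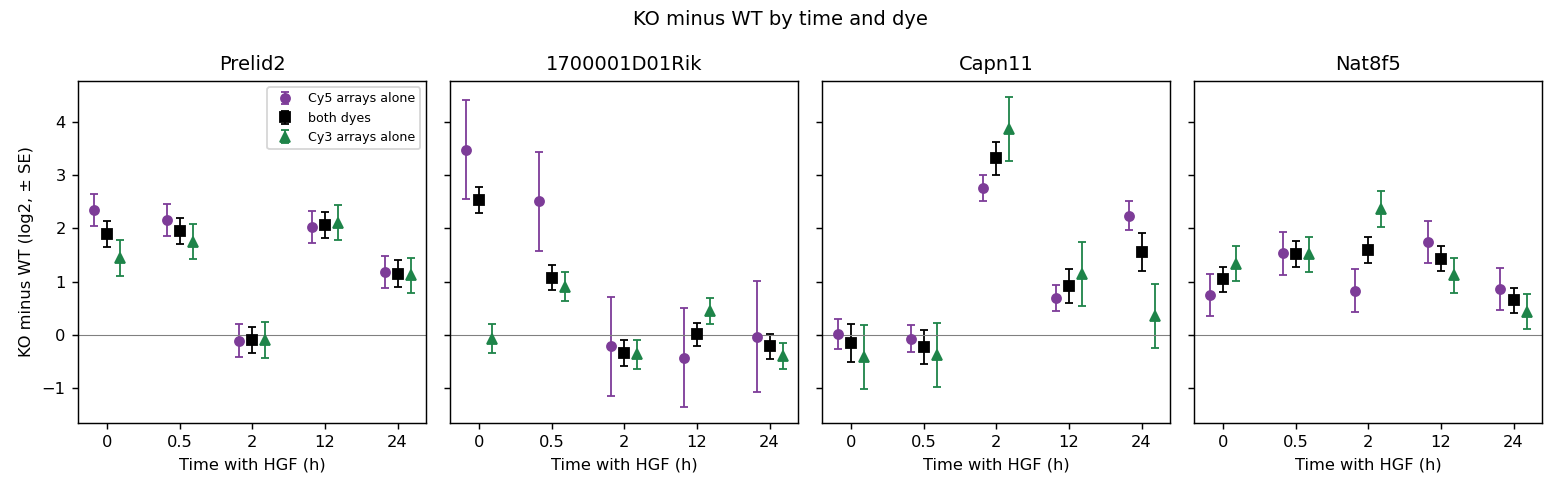
KO minus WT difference in log2 ratio (vertical axis, with bars of ± 1 SE from limma) by hours with HGF (horizontal axis, not to scale in time), for Cy5 arrays alone (circles), both dyes (squares) and Cy3 arrays alone (triangles). Prelid2 and Nat8f5 gave positive differences on both dyes at every time but 2 h for Prelid2, while 1700001D01Rik at 0 h was 3.48 on Cy5 and -0.07 on Cy3.

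Other calpains did not pass the test at 2 h. Of 9 further genes of the calpain system with a tested probe, none did, and their differences ran from -0.11 to 0.96, the highest being Capn8, a calpain of the stomach (limma, adjusted p = 0.571). At 0.5 h, 2 of the 9 were lower in KO, as were 2.3% of all probes. These were Capn1, the catalytic subunit of calpain 1, at -0.71 (limma, adjusted p = 0.00443), and Capns1, the small regulatory subunit, at -0.67 (adjusted p = 0.0201). Capn2, the catalytic subunit of calpain 2, was lower in KO at 12 h (-0.70; limma, adjusted p = 0.0421) and over 12 and 24 h (-0.47; adjusted p = 0.031), where 1.55% and 3.79% of probes were lower. The 9 genes had a median difference of 0.14 at 2 h, beside 0.02 over all tested probes. Of the 10 nearest tested genes on chromosome 17, none passed at 2 h. Slc29a1, a nucleoside transporter, was lower in KO at 0.5 h (-1.07; limma, adjusted p = 0.00486) and 24 h (-0.72; adjusted p = 0.0472), and Vegfa, the endothelial growth factor, at 24 h (-1.37; adjusted p = 0.023), when 2.36% of probes were lower. Since Capn11 is known from testis, markers of male germ cells were read beside it. None of 5 passed at any time, and their mean ratio over the list lay between -0.23 and 0.10 in KO and between -0.02 and 0.04 in WT replicates at 2 h.

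The pattern of Capn11 over the replicates was matched most closely by Cyp2a4, a steroid hydroxylase of the liver, with r = 0.93 over 28 shared replicates. On the Cy5 arrays r was 0.95 and on the Cy3 arrays 0.75. Cxadr and Coasy followed, with r = 0.82 and 0.81. These points share arrays, reference and the low WT values at 2 h.

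Nat8f5 read higher in KO than in WT cells at each of the 5 times, by 1.04 for untreated cells, then 1.52 (0.5 h), 1.60 (2 h), 1.43 (12 h) and 0.65 (24 h). The 0.5 and 12 h differences passed the test, and the 2 h value is the one that chose the gene. By 24 h its level had fallen in both genotypes. Untreated, KO arrays read 2.80, 1.36 and 0.82 in Cy5 and 1.33, 1.99 and 2.41 in Cy3, against 1.32, 0.89 and 0.53 in Cy5 and 0.57, 0.32 and 0.83 in Cy3 for WT. All arrays of both genotypes were above the reference. After 0.5 h, KO arrays read 1.34, 2.58 and 2.09 in Cy5 and 1.09, 1.74 and 1.61 in Cy3, against 0.42, 0.13 and 0.88 in Cy5 and 0.07, -0.04 and -0.12 in Cy3 for WT. Here every KO array was above every WT array. Averaged over dyes, replicates of 15.8% of all probes lay wholly higher in KO at 0.5 h. At 2 h, KO arrays read 1.93, 0.69 and 0.50 in Cy5 and 2.22, 1.02 and 2.75 in Cy3, against 0.58, 0.08 and -0.03 in Cy5 and -0.61, -0.68 and 0.20 in Cy3 for WT. The genotypes overlapped on Cy5 but not on Cy3. At 2 h, replicates of 15.9% of probes lay wholly higher in KO when averaged over dyes.

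At 12 h, KO arrays of Nat8f5 read 1.89, 1.59 and 1.02 in Cy5 and 0.76, 0.90 and 0.61 in Cy3, against -0.27, -0.17 and -0.30 in Cy5 and -0.52, -0.16 and -0.39 in Cy3 for WT. At 24 h, KO arrays read 0.26, -0.17 and 0.17 in Cy5 and -0.23, -0.04 and 0.22 in Cy3, against -0.92, -0.85 and -0.55 in Cy5 and -0.44, -0.84 and -0.06 in Cy3 for WT. KO cells had come down to the reference level by 24 h, and WT cells lay below it.

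The test was passed at 0.5 h, with 1.74 ± 0.48 in KO and 0.22 ± 0.17 in WT (SD, n = 3 each), a difference of 1.52 ± 0.24 (SE; limma, adjusted p = 0.00116), 2.87-fold. It was passed at 12 h, with 1.13 ± 0.27 in KO and -0.30 ± 0.12 in WT (SD, n = 3 each), a difference of 1.43 ± 0.24 (SE; limma, adjusted p = 0.00101). By the same rule 2% of probes were higher in KO at 0.5 h and 1.29% at 12 h. The untreated difference of 1.04 ± 0.24 and the 24 h difference of 0.65 ± 0.24 (SE) did not pass (limma, adjusted p = 0.144 and 0.125). Replicates lay wholly higher in KO at both times, as for 5.14% and 8.55% of probes. On Cy5 arrays alone the 12 h difference was 1.74 (limma, adjusted p = 0.0249) and on Cy3 arrays alone 1.11 (adjusted p = 0.13), where 0.512% and 0.204% of probes were higher. At 0.5 h the values were 1.53 on Cy5 (limma, adjusted p = 0.127) and 1.51 on Cy3 (adjusted p = 0.00709). On those Cy3 arrays 2021 of 16647 probes passed in either direction, and on the Cy5 arrays 60 of 17384. The dye pairs of KO 0.5 h correlated negatively over all probes (r from -0.68 to -0.49). Over 12 and 24 h together the difference was 1.04 ± 0.17 (SE; limma, adjusted p = 0.000162), where 3.77% of probes were higher in KO.

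Against untreated cells of the same genotype, Nat8f5 fell by 1.75 ± 0.24 at 24 h in KO (limma, adjusted p = 0.00024) and by 1.35 ± 0.24 in WT (adjusted p = 0.000552; SE). By that test 2.94% of probes were lower than untreated in KO and 4.76% in WT. Neither fall passed when only the groups compared were fitted, with fewer samples to estimate the spread. At 12 h Nat8f5 fell by 1.04 ± 0.24 in WT (SE, limma adjusted p = 0.0112), where 3.16% of probes were lower. That change did not pass on either dye alone, at -1.16 on Cy5 (limma, adjusted p = 0.0789) and -0.93 on Cy3 (adjusted p = 0.0942). The 12 h change of -0.66 ± 0.24 in KO did not pass (SE; limma, adjusted p = 0.364). At 0.5 h the changes were -0.04 in KO and -0.52 in WT, and neither passed (limma, adjusted p = 1 and 0.316). Between 12 and 24 h Nat8f5 fell by 1.09 ± 0.24 in KO (SE; limma, adjusted p = 0.0433), where 0.425% of probes were lower, and it missed the threshold without any one of KO 12 h replicates 1, 2 and 3 or KO 24 h replicate 2 (values of -1.25 to -0.99, adjusted p of 0.0592 to 0.136). The WT change over that interval was -0.31 ± 0.24 (SE; adjusted p = 0.505). The responses of the genotypes were not shown to differ: the difference was 0.48 at 0.5 h, 0.39 at 12 h and -0.40 at 24 h (limma, adjusted p = 0.678, 0.952 and 0.676). Hepatocyte markers also read lower from 12 h on, which was not tested. The mean ratio over 9 of them lay between -0.83 and -0.60 in KO and between -1.11 and -0.94 in WT replicates at 12 h. It lay between -1.39 and -0.19 in KO and between -1.60 and -1.09 in WT replicates at 24 h, beside -0.13 to 0.18 in KO and -0.28 to 0.21 in WT untreated. Their part in the fall of Nat8f5 was not tested.

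**Figure D3:**
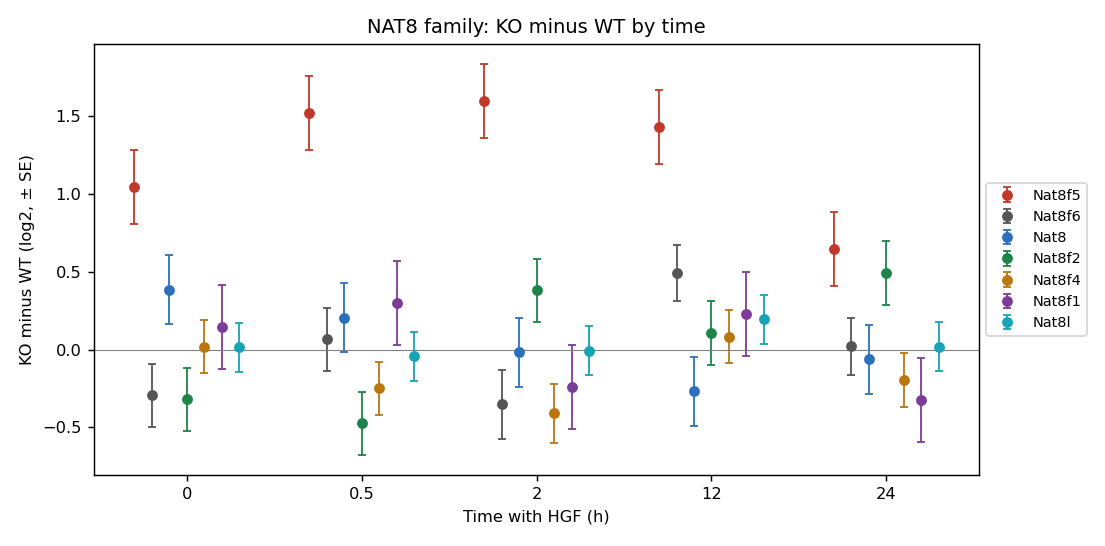
KO minus WT difference in log2 ratio (vertical axis, with bars of ± 1 SE from limma) by hours with HGF (horizontal axis, not to scale in time) for the 7 NAT8 family genes with a tested probe. Nat8f5 lies between 0.65 and 1.60, and the 6 others lie between -0.47 and 0.49.

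The relatives of Nat8f5 did not pass the test between genotypes. Nat8, Nat8f1, Nat8f2, Nat8f4 and Nat8f6 lie beside it on chromosome 6, and Nat8l, which makes N-acetylaspartate in brain, lies elsewhere. This held for all 6 at each time, with differences from -0.47 to 0.49, and their median over 12 and 24 h was 0.03, beside -0.00 over all tested probes. Nat8f2, whose promoter shares the block shown above, had differences of -0.32, -0.47, 0.38, 0.11 and 0.49 at the 5 times. Probe sequences were not used here, so reads of one relative by the probe of another cannot be told apart. Of the 10 nearest tested genes, 5 of them these relatives, none passed at any time. Among 4 further genes of mercapturate handling, Anpep, a membrane aminopeptidase that trims conjugates, was higher in KO at 24 h (0.81; limma, adjusted p = 0.0204) and over 12 and 24 h (0.64; adjusted p = 0.00556). Acy3, a deacetylase of mercapturic acids, was higher at 12 h (0.54; limma, adjusted p = 0.0495) and over 12 and 24 h (0.45; adjusted p = 0.007). Dpep1 and Acy1 did not pass. By the same test 1.29% of all probes were higher in KO at 12 h, 2.41% at 24 h and 3.77% over both. Most like Nat8f5 over the replicates were Ncapd3 (r = 0.87 over 27 shared replicates), Ly6d (0.84 over 30) and Ass1, which makes argininosuccinate in the urea cycle (0.83 over 30).

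1700001D01Rik stood out through 3 arrays, all of them KO samples in Cy5. Untreated, KO arrays read 5.41, 4.79 and 0.13 in Cy5 and 0.55 and -0.60 in Cy3 (replicate 3 missing), against -0.45, -0.39 and 0.73 in Cy5 and 0.25, -0.20 and 0.09 in Cy3 for WT. The same RNA that read 5.41 and 4.79 in Cy5 read 0.55 and -0.60 in Cy3. KO minus WT at 0 h, which chose the gene, was 2.53 over both dyes (2 KO replicates), 3.48 on Cy5 arrays alone and -0.07 on Cy3 arrays alone. After 0.5 h, KO arrays read 0.57, 4.16 and 0.20 in Cy5 and 1.01 and 0.79 in Cy3 (replicate 2 missing), against -0.65, -0.87 and -1.06 in Cy5 and 0.01, 0.05 and -0.07 in Cy3 for WT. The array at 4.16 has no Cy3 partner and so entered neither mean.

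**Figure D4:**
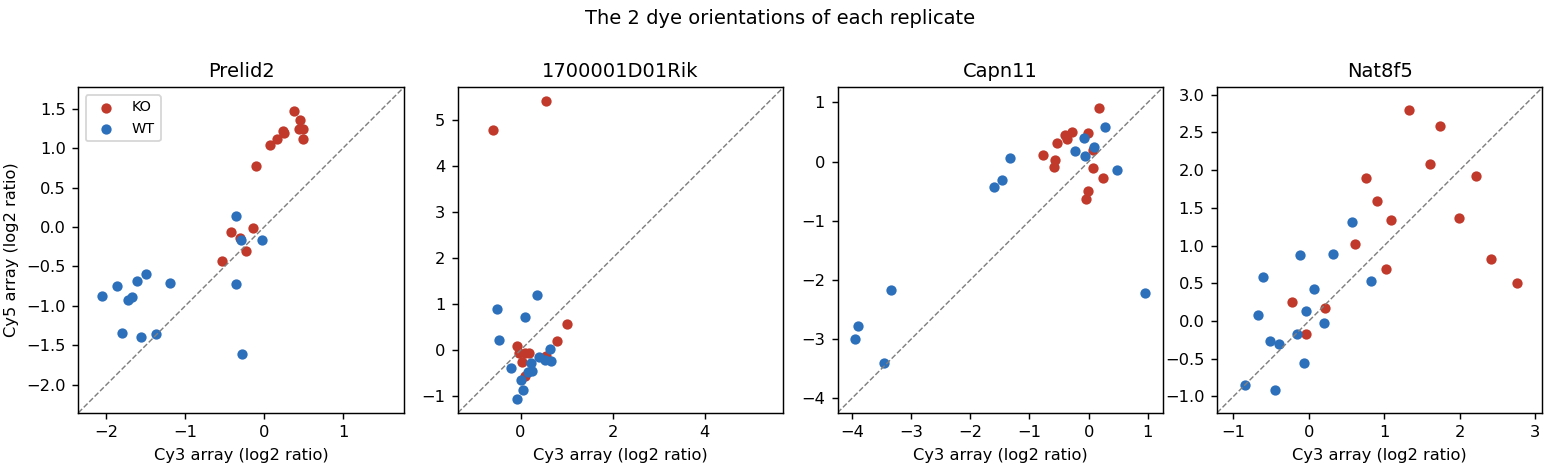
Log2 ratio on the Cy5 array (vertical axis) against that on the Cy3 array (horizontal axis) for each replicate with both, KO in red and WT in blue, with the dashed line of equal values. Prelid2 and Capn11 lie mostly above the line, with Cy5 higher in 26 of 30 and 22 of 28 replicates. Nat8f5 lies on both sides of it, with Cy5 higher in 17 of 30. For 1700001D01Rik, 2 KO replicates are near 5 in Cy5 and within 0.6 of 0 in Cy3.

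From 2 h on, 1700001D01Rik stayed near the reference in both genotypes. At 2 h, KO arrays read -0.07, -0.06 and 0.23 in Cy5 and 0.19 and 0.11 in Cy3 (replicate 3 missing), against -0.21, 1.20 and -0.23 in Cy5 and 0.53, 0.35 and 0.65 in Cy3 for WT. At 12 h, KO arrays read -0.13, -0.06 and -0.27 in Cy5 and 0.56, -0.02 and 0.03 in Cy3, against -0.28, 0.23 and 0.89 in Cy5 and 0.22, -0.47 and -0.51 in Cy3 for WT. The genotypes overlapped on both dyes at 12 h. At 24 h, KO arrays read -0.56 and 0.09 in Cy5 (replicate 2 missing) and 0.09, 0.00 and -0.07 in Cy3, against 0.03, -0.48 and -0.16 in Cy5 and 0.65, 0.16 and 0.41 in Cy3 for WT. Of the 56 arrays with a value, the 53 others ranged from -1.06 to 1.20.

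At 0.5 h, where the choice of the gene used no value, KO minus WT was 1.07 ± 0.24 (SE; 0.64 ± 0.21 in KO with n = 2 and -0.43 ± 0.12 in WT with n = 3, SD) and passed (limma, adjusted p = 0.0149). By this test 2% of probes were higher in KO, and the difference ranked 159 from the highest of 14580. The estimate of 1.07 holds none of the 3 high arrays. It was 0.90 on Cy3 arrays alone (limma, adjusted p = 0.0358), where 2021 of 16647 probes passed in either direction. On Cy5 arrays alone, where the high array counts and 60 of 17384 probes passed in either direction, it was 2.50 (limma, adjusted p = 0.386). It missed the threshold without KO replicate 1, which leaves 1 KO replicate (0.92, limma, adjusted p = 0.119), and without WT replicate 3 (1.01, adjusted p = 0.0694). At 2, 12 and 24 h the differences were -0.34, 0.01 and -0.22, and none passed (limma, adjusted p = 0.81, 0.995 and 0.676). The changes against untreated were -1.90 at 0.5 h, -2.49 at 2 h, -2.52 at 12 h and -2.65 at 24 h in KO, with no test since the untreated Cy5 arrays chose the gene. On Cy3 arrays alone these changes were 0.92, 0.17, 0.21 and 0.03. Between 12 and 24 h the change was -0.13 in KO and 0.09 in WT (limma, adjusted p = 0.925 and 0.858).

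The 2 dyes of a replicate agreed to different degrees for the 4 genes. Over replicates with both arrays, Cy5 and Cy3 values correlated with r = 0.83 for Prelid2 (n = 30), 0.75 for Capn11 (n = 28), 0.68 for Nat8f5 (n = 30) and -0.09 for 1700001D01Rik (n = 26), beside a median of -0.04 over all tested probes. These r include the groups whose values chose the genes and are a description. The widest gap between dyes in a replicate of 1700001D01Rik was 5.39. A reading beyond 4 in size on at least 1 array was found for 677 of the 14580 tested probes.

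Neighbours of 1700001D01Rik on chromosome 8 were read as well. None of the 10 nearest tested genes passed at 0 or 0.5 h, with differences from -0.34 to 0.27 untreated. Cbr4, a mitochondrial carbonyl reductase, was higher in KO over 12 and 24 h (0.30; limma, adjusted p = 0.0295), as were 3.77% of all probes. The closest patterns over its 26 replicates were Ceacam3 (r = 0.68), Hamp, the iron hormone hepcidin (0.66), and C630043F03Rik (0.66). On Cy5 arrays alone these r were 0.35, 0.57 and 0.28, and on Cy3 arrays alone 0.25, 0.45 and 0.20.

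Markers of other liver cells were read beside the genotype differences over 12 and 24 h, where 3.77% of all probes were higher and 3.79% lower in KO. Among 5 Kupffer cell markers, Mpeg1 was higher in KO (0.82; limma, adjusted p = 0.00119). The others did not pass, with Clec4f at 0.15, Marco at 0.25, C1qa at -0.27 and C1qc at -0.31. At 12 h the mean ratio over the list lay between -0.20 and -0.12 in KO and between -0.25 and -0.14 in WT replicates. At 24 h it lay between -0.57 and -0.11 in KO and between -0.62 and -0.46 in WT replicates. Among 4 endothelial markers, Dnase1l3 (-1.11; limma, adjusted p = 4.76e-05) and Clec4g (-0.51; adjusted p = 0.0189) were lower in KO. The mean ratio over this list at 12 h lay between -0.52 and -0.36 in KO and between -0.03 and 0.18 in WT replicates. At 24 h the genotypes overlapped, with -0.74 to -0.23 in KO and -0.37 to 0.04 in WT replicates. None of 3 stellate cell markers and 1 of 5 bile duct markers, Krt7 (-0.34; limma, adjusted p = 0.0104), passed. Of 9 hepatocyte markers, Asgr1 was higher in KO (0.67; limma, adjusted p = 0.00321). The others did not pass, and differences over this list ran from -0.09 to 1.43. At 0.5 h, Cps1 was higher in KO (1.18, limma adjusted p = 0.00464), and Dcn (-1.13, adjusted p = 0.00564) and Cftr (-1.17, adjusted p = 0.0135) were lower. By that test 2% of probes were higher and 2.3% lower. Endothelial list means were -0.41 to -0.38 in KO and -0.01 to 0.07 in WT replicates, and bile duct means -0.25 to -0.19 and 0.11 to 0.23. Kupffer means were also lower in KO, and hepatocyte and stellate means overlapped. Because values are ratios to hepatocyte RNA, they do not show how abundant any marker is, and fewer cells of a type and less RNA per cell cannot be told apart. The part of these cells in the readings of the 4 genes was not tested.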

How the data were processed

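RNA of 30 replicates (10 groups of 3) was measured on 60 two-colour oligonucleotide arrays. The deposited table holds log2 ratios, 1 per probe and array, as deposited by the authors; any normalization, the numerator and the log base are not given in the sources used here, and base 2 was inferred from the largest size of a value, 11.6. Groups were taken from the titles, because another label puts the 12 h samples at 0.5 h; the labels state the dose of 50 in ng/ml and also in nM. Probes were named from the platform annotation, updated through a RefSeq gene table (GRCm38.p6): 16076 had 1 symbol, 288 several and 5633 none.

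Arrays were median-centred, and the 2 orientations of a replicate averaged. A probe was tested where at least 2 of 3 replicates in every group had both orientations (14580 probes, 66.3%). A model with a mean for every group was fitted over all 30 replicates with limma 3.58.1 (R 4.3.3; 20 residual and 4.48 prior degrees of freedom), two-sided, with Benjamini-Hochberg adjustment over all tested probes and a threshold of 0.05. Fits on 1 dye used the arrays of that dye. The scripts were tested on simulated data. A gene with several probes was read from that with values on most arrays. Correlations and promoter windows were computed in Python 3.11.15.

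The 4 genes, their families, marker lists, neighbours (5 tested genes on each side), likeness rule (the 3 genes of highest Pearson r over replicates, at least 27 shared, or 26 for 1700001D01Rik) and tests were chosen with earlier results of these data known. Alternatives were the array centring and scaling, the sign of Cy3 arrays or of 1 array, 1 dye, probe filters, the groups fitted, group weights, a dye term, the array set, a replicate block (statmod 1.5.0) and leaving out replicates. Pairing by replicate number was left out of the main model. Of 60 same-numbered pairs, 10 had correlations over 0.1 (r from -0.25 to 0.67), which does not settle whether they pair.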

Additional observations from a re-analysis of the deposited data

Results flagged for a closer look

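The KO minus WT difference of Prelid2 was lower at 2 h than at 12 h, with a 2 h minus 12 h value of -2.17 ± 0.35 (SE; limma, adjusted p = 0.0132). It was picked out because the test of the difference itself passed, in a comparison chosen after the values were seen. The group means at 2 and 12 h were -0.25 and 0.80 in KO and -0.14 and -1.26 in WT. All 12 h arrays are in set C and all 2 h arrays but KO replicate 3 in set D. A set effect differing between genotypes was not tested.

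The Cy5 array of KO 0.5 h replicate 2 read 4.16 for 1700001D01Rik. It was picked out because it has no Cy3 partner, was used in no mean over both dyes, and lies above the WT Cy5 arrays of that time (-1.06 to -0.65). The part of the dye in this reading was not tested, since the partner value is missing.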

How the results depend on the processing

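Over 51 results and 18 settings, 804 of 893 alternative values kept their direction and side of the threshold or changed sign without passing on either side, as 51 values in all did. Not centring the arrays, the looser filter and the replicate block changed no call (Prelid2 at 12 h 2.06 with the replicate block, adjusted p = 3.44e-05 from limma). Of 30 replicates, 10 had their best correlation with those of like number, which does not settle whether they pair. Turning the sign of all Cy3 arrays gave, for KO minus WT, Prelid2 -0.0408 at 12 h, 0.0349 at 24 h, -0.00296 over both and 0.0348 for 2 h minus 12 h, Capn11 -0.56 at 2 h and 0.69 at 24 h, and Nat8f5 -0.77 at 2 h and 0.315 at 12 h, and for 24 h against untreated Capn11 -0.49 in WT and Nat8f5 0.18 in KO and -0.33 in WT. Cy3 arrays alone gave 1700001D01Rik -0.0722 at 0 h, and, no longer past the threshold, Prelid2 1.11 and Capn11 0.35 at 24 h, Nat8f5 1.11 at 12 h, and for 24 h in WT Capn11 -0.74 and Nat8f5 -1.02. Cy5 arrays alone gave Nat8f5 -1.58 for 24 h in KO, not past it. Scaling arrays to a common spread took below the threshold Prelid2 (0.77) and Capn11 (0.79) at 24 h and the 24 h change of Capn11 in WT (-1.07). With 1 orientation enough, Capn11 at 24 h was 0.86 and its change in WT -1.06, neither past it. Weighting replicates by group took Prelid2 (1.15) and Capn11 (1.55) at 24 h and the 24 h change of Nat8f5 in WT (-1.35) below it, and Capn11 at 12 h (0.92) past it, as did leaving out sets A and B (0.92). Fitting only the groups compared, with fewer samples to estimate the spread, took below it Prelid2 (1.15) and Capn11 (1.55) at 24 h, Capn11 (-1.75) and Nat8f5 (-1.35) at 24 h in WT and Nat8f5 (-1.75) in KO. Turning the Cy5 array of WT 0 h replicate 3 took Prelid2 at 24 h (1.15) below it. Leaving out single replicates gave 0.49 to 2.61 for Capn11 at 24 h and -2.81 to -0.69 for its change in WT, where 1 WT replicate is left at either end. The cause was not tested. The 3 replicates per group limit all values, and 1 probe per gene was read.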
